A study of Homo sapiens with 2 samples.

Results

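The 34 genes that carry the names of constitutive proteasome subunits, 3 of which code for assembly chaperones, were followed through tumour cells exposed to inflammatory cytokines. They were taken by symbol, as PSMA1 to PSMA7, PSMB1 to PSMB7, PSMC1 to PSMC6 and PSMD1 to PSMD14, and they made 34 of the 36601 genes in the matrix. All 34 were detected in each of 15 hashed samples and passed the filter on low values that left 9361 genes. The cells were OVCAR5, a human ovarian carcinoma line, grown as tumours in NSG-b2m-/- mice, taken out, digested and treated with cytokines in culture. Cells of 5 tumours were stained with hashtag antibodies, combined, sorted as CFP+ cells, which the labels call bystander tumour cells, and sequenced as 1 pool in a 10x Genomics single-cell library with a library of hashtags beside it. The labels list 5 entries each of IFN-gamma at 100 ng/ml with TNF at 10 ng/ml, of TNF at 10 ng/ml alone, and of no stimulation, all for 6 h.

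The labels tie no hashtag to a treatment. Each of 3144 cells carried a clear pair of hashtags, and the 15 pairs were called hashed samples. The pairs were placed in 3 groups of 5 by an earlier inference on these data, and the groups are named here, by the cytokine response they resemble, IFN-gamma-plus-TNF-like, TNF-like and unstimulated-like. The IFN-gamma-plus-TNF-like pairs were HTO2 with HTO7, HTO3 with HTO6 and with HTO9, and HTO4 with HTO6 and with HTO9. The TNF-like pairs were HTO2 with HTO6 and with HTO10, HTO3 with HTO5 and with HTO8, and HTO4 with HTO8. The unstimulated-like pairs were HTO2 with HTO5 and with HTO8, HTO3 with HTO7, and HTO4 with HTO7 and with HTO10. Wherever 5 values are given for a group they follow this order. The basis of the inference is not recorded and is taken here to be the cytokine response of these same cells, so any value tied to interferon or TNF may restate it. Because the groups rest on inference and not on labels, no p-value was computed. A gene was counted as higher or lower where the groups did not overlap, that is, where every hashed sample of one group lay above every hashed sample of the other, and the counts are set beside the share of all 9361 genes that met the same rule. Levels are summed UMI counts (molecules counted once each by their tags) per 10000 UMIs of a hashed sample. Counting at the 3' end scores a molecule once whatever its length, so levels were set side by side between genes without a correction for length. Nothing in the labels says which tumour a pair came from, so the spread between pairs may be technical.

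The proteasome is the barrel-shaped protease that degrades ubiquitin-tagged proteins. Its core particle, the 20S, stacks outer alpha rings (PSMA genes) on inner beta rings (PSMB genes), and the beta subunits PSMB5, PSMB6 and PSMB7 carry the active sites. The 19S cap recognises, unfolds and feeds in the substrate with a ring of ATPases (PSMC genes) and a set of non-ATPase subunits (PSMD genes). Interferon gamma is known to induce replacements of the active beta subunits, PSMB8, PSMB9 and PSMB10, which form the immunoproteasome and change the peptides offered on MHC class I, whereas the alpha subunits are shared by both forms of the core.

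The hashed samples held 49 to 630 cells and 582102 to 7324691 UMIs, and the median UMI count per cell was 10952 to 11881 in IFN-gamma-plus-TNF-like samples, 11095.5 to 12405 in TNF-like samples and 10942 to 12369 in unstimulated-like samples. The smallest were HTO3 with HTO9 at 53 cells and HTO3 with HTO5 at 49 cells. The median mitochondrial share was 12.2% to 14.7% over the 15 samples. The alternative limit of 10% used below therefore left out most cells of every sample. The summed level of 8 IFN-gamma response genes was 144 to 224, 4.43 to 10.0 and 3.10 to 5.12 in the 3 groups in that order, and that of 6 NF-kB response genes was 48.3 to 55.8, 33.3 to 46.2 and 3.05 to 5.01. These lists are taken to restate the inference and support nothing. Epithelial markers summed to 40.8 to 48.8 in IFN-gamma-plus-TNF-like samples, 45.6 to 67.1 in TNF-like samples and 72.8 to 90.1 in unstimulated-like samples, with all 10 detected. Of other cell types, T or NK cell markers reached 0.00539 with 7 of 8 genes at 0 counts, erythroid markers were at 0, and B cell, fibroblast and endothelial lists stayed at or under 0.0519. Myeloid markers summed to 0.292 to 0.599. S phase genes summed to 1.29 to 2.08, 2.14 to 4.18 and 2.89 to 4.35 in the 3 groups, and the part of this difference, and of that in epithelial markers, in the proteasome values was not tested.

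The largest differences among the 34 genes were in the alpha ring. PSMA1 to PSMA6 were higher in IFN-gamma-plus-TNF-like than in unstimulated-like samples without overlap, each by 1.56-fold or more, and PSMA7, which codes for the alpha subunit with the highest level, was not. Beta ring genes differed by less, with PSMB2, PSMB3 and PSMB7 higher and PSMB5, the chymotrypsin-like active subunit, lower. No gene of the 19S cap separated those groups. In counts, 9 of 34 members were higher, against 8.57% of all genes tested, and 1 of 34 was lower, against 19.8% of all genes. Against TNF-like samples, 7 members were higher, with 5.70% of all genes, and 2 were lower, with 9.34%. Between TNF-like and unstimulated-like samples 2 members, PSMA3 and PSMA6, were higher, with 4.04% of all genes, and 0 were lower, with 4.09%. The comparisons share hashed samples and are not independent of each other.

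**Figure D1:**
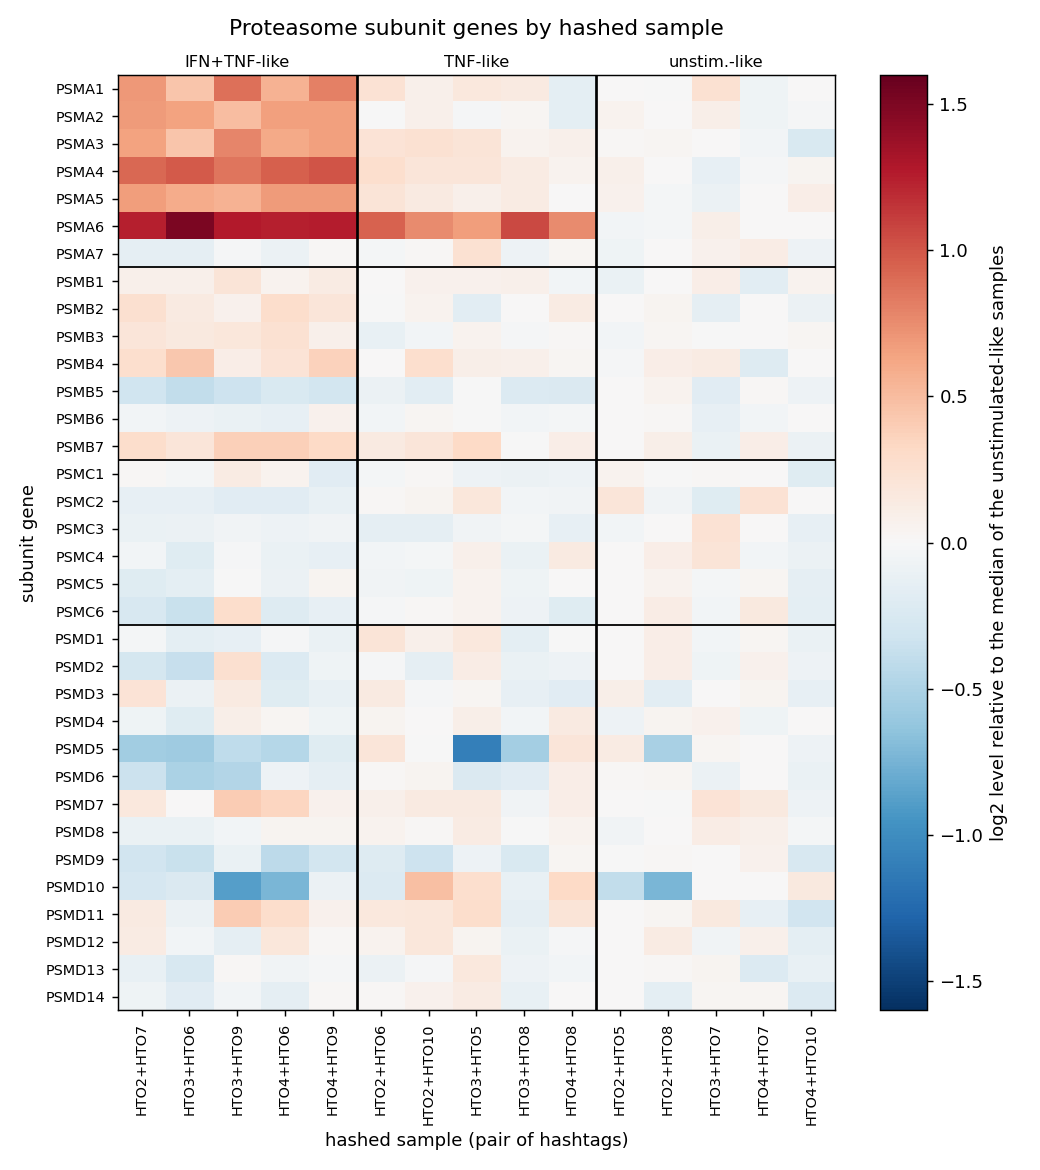
Levels of the 34 subunit genes in 15 hashed samples, as log2 of the level over the median of the unstimulated-like samples. Rows are genes by class, columns are hashed samples by group with the IFN-gamma-plus-TNF-like samples at the left, and color runs from blue (lower) to red (higher). The red block is PSMA1 to PSMA6, where PSMA6 is also red in the TNF-like samples, and PSMA7 beside it is pale.

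Levels per 10000 UMIs depend on what else the cells make. The median log2 ratio over all genes tested was -0.24 for IFN-gamma-plus-TNF-like over unstimulated-like samples, -0.17 over TNF-like samples and -0.07 for TNF-like over unstimulated-like samples. The medians over the 34 members were -0.06, -0.03 and 0.02, and 29 of 34 members lay above the median of all genes in each of the 3 comparisons. With TMM scaling, which centres most genes, the share of higher genes among the genes without overlap moved. It went to 57.6%, from 30.2% per 10000 UMIs, for IFN-gamma-plus-TNF-like against unstimulated-like samples. The same share moved to 67.2% from 37.9% against TNF-like samples, and to 63.2% from 49.7% for TNF-like against unstimulated-like samples. PSMA1 to PSMA6 remained higher and PSMA7 overlapped under both scalings, whereas PSMB5 overlapped with TMM. For this reason ratios between subunits of the same sample, which need no scaling, are given beside the levels below.

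Promoter windows were read for 29 of the 34 members, as 250 bases before to 50 after each transcript start (RefSeq, GRCh38.p14). The RefSeq start of PSMA6 lies inside the GENCODE gene. Some genes have several starts and so several windows, and 1 window is shown each for PSMA6 and PSMA4, which had the widest differences, and for PSMB5, which went the other way. Capitals mark the letters of any searched motif, on either strand.
PSMA6 chr14:35292067-35292366 (+): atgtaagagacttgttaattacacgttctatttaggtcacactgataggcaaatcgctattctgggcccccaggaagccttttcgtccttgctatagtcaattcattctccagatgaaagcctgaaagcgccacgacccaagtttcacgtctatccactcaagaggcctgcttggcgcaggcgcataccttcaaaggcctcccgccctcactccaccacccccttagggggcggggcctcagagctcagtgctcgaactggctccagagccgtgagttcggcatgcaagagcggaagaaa
PSMA4 chr15:78540155-78540454 (+): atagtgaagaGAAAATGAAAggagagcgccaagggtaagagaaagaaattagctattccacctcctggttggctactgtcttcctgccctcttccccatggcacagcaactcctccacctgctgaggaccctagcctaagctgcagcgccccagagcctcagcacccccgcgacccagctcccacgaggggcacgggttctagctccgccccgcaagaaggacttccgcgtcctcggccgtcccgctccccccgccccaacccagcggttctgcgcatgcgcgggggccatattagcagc
PSMB5 chr14:23035171-23035470 (-): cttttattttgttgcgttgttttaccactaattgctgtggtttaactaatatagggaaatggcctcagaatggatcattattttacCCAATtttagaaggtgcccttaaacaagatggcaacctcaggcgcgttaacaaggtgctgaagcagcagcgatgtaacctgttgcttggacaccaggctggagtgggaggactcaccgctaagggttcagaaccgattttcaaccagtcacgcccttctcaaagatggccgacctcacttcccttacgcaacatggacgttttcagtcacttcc
The motifs searched were GAAANNGAAA for the interferon-stimulated response element, TTCNNNGAA for the STAT site, GGGNNTTTCC for NF-kB, TGACNNNGC for the antioxidant response element that NRF1 (NFE2L1) and NRF2 (NFE2L2) bind, and CCAAT, each with its reverse complement and with overlaps allowed. The window shown for PSMA4 held the interferon-stimulated response letters at position -240 from the start, and that for PSMB5 held CCAAT at -164. Of the other windows of these genes, that of PSMB5 (23034851 to 23035150) held the STAT letters at 2 positions. One other PSMA4 window (78540536 to 78540835) held the antioxidant response letters at -126 and CCAAT at -199, and the remaining one held none. Both PSMA6 windows held none of the 5. Among the 29 members, 2 held the interferon-stimulated response letters in any window, beside 3.57% of 35116 single promoter windows. The STAT letters were in 5 members (7.66% of all windows), the NF-kB letters in 1 (1.91%), the antioxidant response letters in 9 (13.3%) and CCAAT in 16 (34.6%). Of the 6 genes PSMA1 to PSMA6, 1 held the interferon-stimulated response letters, 1 the STAT letters, 0 the NF-kB letters, 1 the antioxidant response letters and 4 CCAAT. A gene with several windows was counted once if any of them matched, whereas the shares count each window. Such a gene has more chances to match, so the members' counts and those shares are in unlike units. A match to letters is not a bound site.

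PSMA6, an outer-ring subunit gene on chromosome 14 (35278633 to 35317493, + strand, GRCh38, GENCODE 29), spanned most. Its level was 8.91, 10.6, 9.06, 8.89 and 8.95 in IFN-gamma-plus-TNF-like samples, 7.23, 6.31, 5.94, 7.81 and 6.31 in TNF-like samples, and 3.63, 3.67, 4.01, 3.75 and 3.75 in unstimulated-like samples. The 3 groups were apart from each other, and HTO3 with HTO6 stood highest. The ratio of group medians was 2.39-fold for IFN-gamma-plus-TNF-like over unstimulated-like samples (log2 1.25), 1.42-fold over TNF-like samples (log2 0.50) and 1.68-fold for TNF-like over unstimulated-like samples (log2 0.75). Even in the smallest sample, HTO3 with HTO5, the 346 counted molecules gave an exact Poisson 95% interval of 5.33 to 6.60, which covers counting error only. The annotation names 4 pseudogenes of PSMA6, with which reads may be shared.

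PSMA4, an alpha subunit gene on chromosome 15 (78540405 to 78552419, + strand), had the next widest difference. It stood at 4.87, 5.07, 4.62, 4.99 and 5.13 in IFN-gamma-plus-TNF-like samples, 3.10, 2.94, 2.94, 2.82 and 2.67 in TNF-like samples, and 2.71, 2.56, 2.34, 2.54 and 2.64 in unstimulated-like samples. The first group lay above both others, which overlapped. The ratios were 1.95-fold over unstimulated-like samples, 1.70-fold over TNF-like samples and 1.15-fold for TNF-like over unstimulated-like samples. The low end of the TNF-like group was HTO4 with HTO8, without which the TNF-like and unstimulated-like samples did not overlap. They also did not overlap without HTO2 with HTO5, the highest unstimulated-like sample.

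PSMA1, PSMA2, PSMA3 and PSMA5 code for further alpha subunits. PSMA1 (chromosome 11) was at 2.79, 2.35, 3.16, 2.52 and 3.02 in IFN-gamma-plus-TNF-like samples, 2.01, 1.83, 1.94, 1.89 and 1.55 in TNF-like samples, and 1.73, 1.71, 2.03, 1.64 and 1.72 in unstimulated-like samples. The lowest IFN-gamma-plus-TNF-like sample was above the highest of both other groups, with 1.62-fold and 1.47-fold ratios over unstimulated-like and over TNF-like samples. PSMA2 (chromosome 7) was at 5.72, 5.59, 5.04, 5.65 and 5.64 in IFN-gamma-plus-TNF-like samples, 3.58, 3.77, 3.52, 3.66 and 3.20 in TNF-like samples, and 3.71, 3.58, 3.81, 3.40 and 3.52 in unstimulated-like samples. Its ratio was 1.58-fold over each of the other groups, and TNF-like and unstimulated-like medians were level at 3.58. PSMA2 overlaps MRPL32 on the opposite strand, and whether counting used strand is not stated in the sources at hand.

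PSMA3 (chromosome 14) was at 4.95, 4.30, 5.44, 4.84 and 5.00 in IFN-gamma-plus-TNF-like samples, 3.70, 3.75, 3.68, 3.29 and 3.36 in TNF-like samples, and 3.21, 3.23, 3.17, 3.07 and 2.67 in unstimulated-like samples. Like PSMA6 it kept all 3 groups apart, by 1.56-fold over unstimulated-like samples, 1.35-fold over TNF-like samples, and 1.16-fold for TNF-like over unstimulated-like samples. The last separation was narrow, 3.29 against 3.23 at the edges, and was lost when the level was averaged over cells, when cells were thinned to 5000 UMIs and without cells of 3 or more G2/M UMIs. The antisense gene PSMA3-AS1, whose reads cannot be told apart without strand, was at 0.241 to 0.408 over all samples. PSMA5 (chromosome 1) was at 2.85, 2.70, 2.64, 2.89 and 2.87 in IFN-gamma-plus-TNF-like samples, 2.07, 1.98, 1.91, 1.97 and 1.80 in TNF-like samples, and 1.88, 1.76, 1.69, 1.80 and 1.94 in unstimulated-like samples. It separated the first group from both others, by 1.59-fold over unstimulated-like and 1.44-fold over TNF-like samples.

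**Figure D2:**
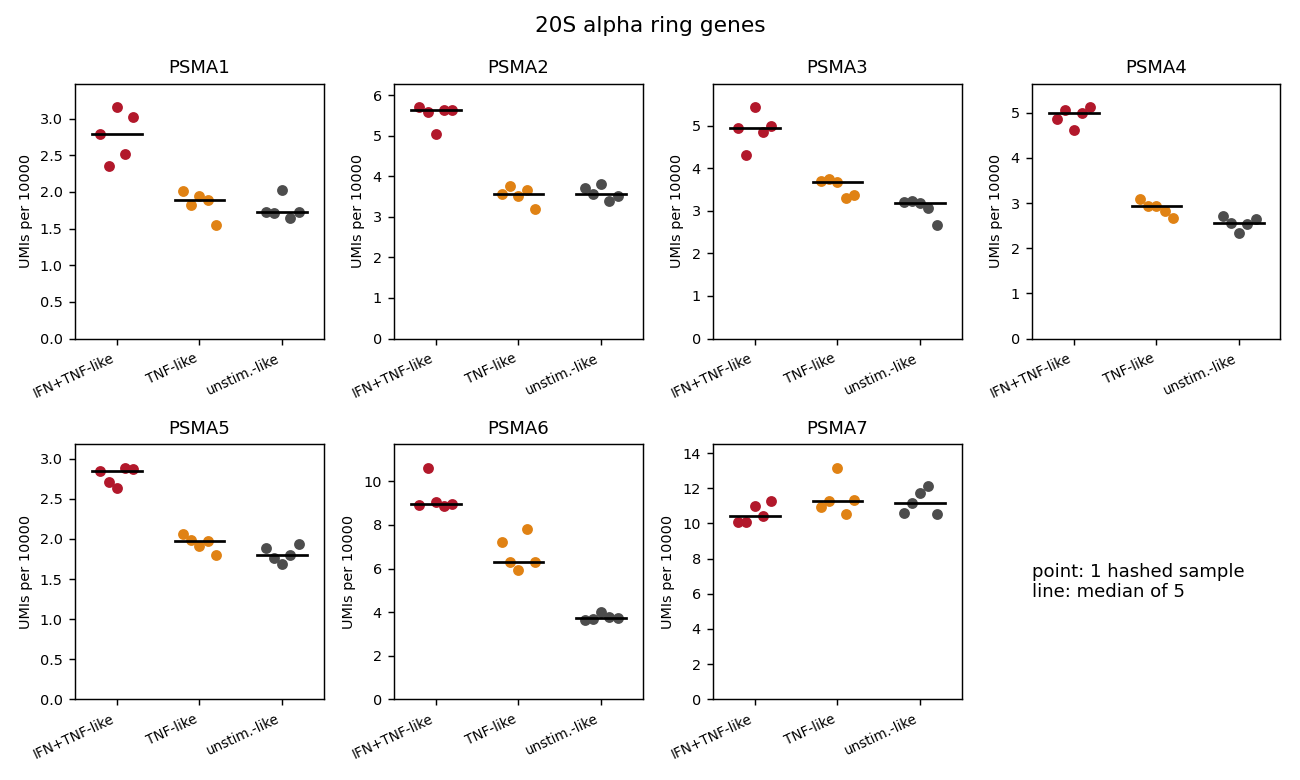
Levels of the 7 alpha ring genes in UMIs per 10000 (y axes from 0). Each point is 1 hashed sample and each line the median of 5, with IFN-gamma-plus-TNF-like samples at the left, then TNF-like and unstimulated-like samples. For PSMA1 to PSMA6 all red points are above all others, for PSMA6 the TNF-like points (5.94 to 7.81) are also above the unstimulated-like ones (3.63 to 4.01), and for PSMA7 the groups overlap.

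PSMA7, the remaining alpha subunit gene, did not share the pattern. It was the most abundant of the 34 genes, with a pooled level of 10.7, and stood at 10.1, 10.1, 11.0, 10.4 and 11.2 in IFN-gamma-plus-TNF-like samples, 10.9, 11.3, 13.2, 10.6 and 11.3 in TNF-like samples, and 10.6, 11.1, 11.7, 12.1 and 10.5 in unstimulated-like samples. All 3 groups overlapped, with a log2 ratio of -0.10 for IFN-gamma-plus-TNF-like over unstimulated-like samples, and they overlapped under each of the 26 alternative settings run. The summed counts of PSMA1 to PSMA6 over those of PSMA7 were 2.98, 3.04, 2.73, 2.86 and 2.72 in IFN-gamma-plus-TNF-like samples, 1.98, 1.82, 1.51, 2.03 and 1.66 in TNF-like samples, and 1.59, 1.48, 1.46, 1.33 and 1.54 in unstimulated-like samples. This ratio, chosen after the values were seen, separated the first group from both others, and TNF-like and unstimulated-like samples overlapped through HTO3 with HTO5, the sample of 49 cells. Without that sample they did not overlap. PSMA6 over PSMA7 was 0.796 to 1.06, 0.451 to 0.740 and 0.309 to 0.356 in the 3 groups, and kept all 3 apart, except that the first group overlapped the TNF-like samples at a mitochondrial limit of 10%.

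The beta ring differed less. Its 7 genes summed to medians of 20.5 in IFN-gamma-plus-TNF-like samples, 19.2 in TNF-like samples and 19.1 in unstimulated-like samples, with overlap in all 3 comparisons, and its median log2 ratio of the first group over the last was 0.18. PSMB3, a structural subunit gene and the most abundant of the ring, was at 5.40, 5.24, 5.35, 5.57 and 4.97 in IFN-gamma-plus-TNF-like samples, 4.34, 4.56, 4.90, 4.65 and 4.75 in TNF-like samples, and 4.55, 4.79, 4.68, 4.71 and 4.81 in unstimulated-like samples. The first group was 1.14-fold higher than the last and 1.15-fold higher than the TNF-like samples, with 4.97 against 4.90 at that edge. Both separations were lost at a mitochondrial limit of 10%, with the mean over cells, in thinned cells and without cells of 3 or more G2/M UMIs, and that from TNF-like samples also without mitochondrial and ribosomal protein genes in the total. PSMB2, another structural subunit gene, was 1.94 to 2.26 in IFN-gamma-plus-TNF-like samples, 1.65 to 2.03 in TNF-like samples and 1.67 to 1.91 in unstimulated-like samples, and separated the first and the last except at the 10% limit and in thinned cells. PSMB4, the least abundant of the ring, was 0.802 to 0.998, 0.745 to 0.894 and 0.647 to 0.815 in the 3 groups and overlapped, as did PSMB1 at 4.54 to 5.03, 4.22 to 4.62 and 3.90 to 4.72. With TMM or median-of-ratios scaling, PSMB1, PSMB4 and PSMB6 were higher in the first group than in the last without overlap. PSMB4 was so too with a limit of 500 genes and without G2/M cells. Against TNF-like samples PSMB1 and PSMB2 were higher with both scalings, and PSMB4 with TMM.

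Among the catalytic subunit genes no shared direction was seen. PSMB5, the chymotrypsin-like subunit (chromosome 14, 23016543 to 23035230, - strand), was at 2.88, 2.74, 2.87, 3.03 and 2.94 in IFN-gamma-plus-TNF-like samples, 3.37, 3.20, 3.59, 3.11 and 3.06 in TNF-like samples, and 3.60, 3.73, 3.17, 3.64 and 3.41 in unstimulated-like samples. It was the only member lower in the first group than in the last, with a log2 ratio of -0.32, and its edge to the TNF-like samples, 3.03 against 3.06, was narrower than the counting interval. At the 10% limit and with TMM or median-of-ratios scaling PSMB5 overlapped in both comparisons. It also overlapped the unstimulated-like samples in thinned cells, and the TNF-like samples with the mean over cells and without G2/M cells. PSMB6, the caspase-like subunit gene, had the narrowest span of all 34 genes, 1.15-fold between its lowest and highest sample, at 2.63 to 3.02, 2.79 to 2.95 and 2.63 to 2.93 in the 3 groups. PSMB7, the trypsin-like subunit gene, was at 1.74, 1.63, 1.87, 1.87 and 1.78 in IFN-gamma-plus-TNF-like samples and 1.43, 1.52, 1.32, 1.54 and 1.34 in unstimulated-like samples, 1.24-fold higher in the first, with TNF-like samples between at 1.42 to 1.79 and overlapping both. Its separation was lost at the 10% limit and in thinned cells. PSMB5 over the sum of PSMB6 and PSMB7, which needs no scaling and was chosen after the values were seen, was 0.637, 0.631, 0.633, 0.674 and 0.613 in IFN-gamma-plus-TNF-like samples, 0.770, 0.701, 0.771, 0.739 and 0.702 in TNF-like samples, and 0.834, 0.839, 0.802, 0.841 and 0.809 in unstimulated-like samples. The 3 groups did not overlap in this ratio, although the TNF-like group overlapped each of the others at a mitochondrial limit of 10% and with cells thinned to 5000 UMIs, and the first group without G2/M cells.

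The replacements of these subunits gave the background to that ratio. PSMB8, which takes the place of PSMB5, stood at 3.39 to 4.63, 0.773 to 1.77 and 0.749 to 1.38 in the 3 groups, PSMB9, which takes that of PSMB6, at 5.43 to 6.98, 0.533 to 1.77 and 0.793 to 1.24, and PSMB10, which takes that of PSMB7, at 2.21 to 2.52, 1.01 to 1.21 and 0.937 to 1.13. PSMB9 was in the list used to check the groups, so these are descriptions. The count of PSMB8 over that of PSMB5 was 1.18 to 1.69 in IFN-gamma-plus-TNF-like samples, 0.215 to 0.568 in TNF-like samples and 0.236 to 0.404 in unstimulated-like samples. PSMB9 over PSMB6 was 2.02 to 2.58, 0.186 to 0.636 and 0.284 to 0.429, and PSMB10 over PSMB7 was 1.19 to 1.42, 0.587 to 0.853 and 0.648 to 0.792. For all 3 pairs the immunoproteasome gene was the more abundant in every IFN-gamma-plus-TNF-like sample and the less abundant in every other sample. In the annotation PSMB8 overlaps PSMB9 and PSMB8-AS1 on the opposite strand, and PSMB9 also overlaps TAP1 on the opposite strand. Whether counting used strand is not stated, so the counts of PSMB8 and PSMB9 may hold reads of these genes.

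**Figure D3:**
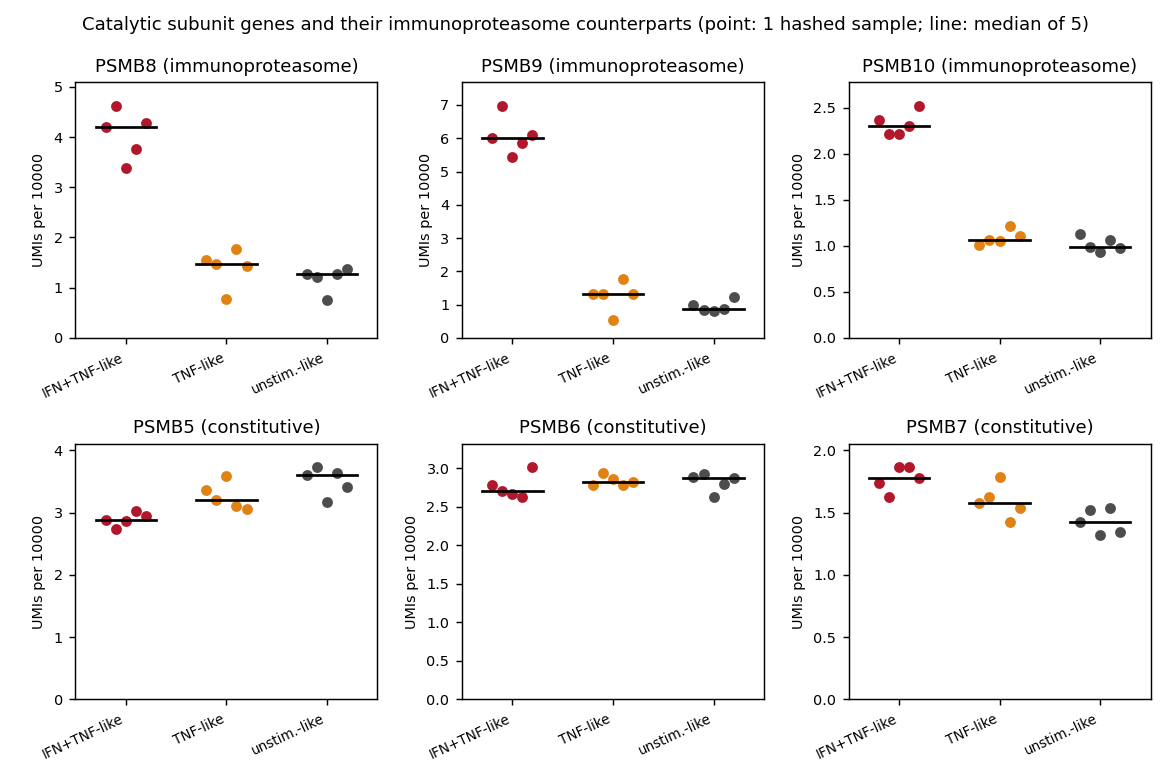
Levels of the immunoproteasome genes PSMB8, PSMB9 and PSMB10 (top row) above their constitutive counterparts PSMB5, PSMB6 and PSMB7 (bottom row), in UMIs per 10000 with y axes from 0. Each point is 1 hashed sample and each line the median of 5, with IFN-gamma-plus-TNF-like samples at the left. The top row separates those samples from both other groups, whereas in the bottom row PSMB5 is lowest in them (2.74 to 3.03), PSMB6 overlaps, and PSMB7 (1.63 to 1.87) is above the unstimulated-like samples and overlaps the TNF-like ones (1.42 to 1.79).

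The ATPase ring of the cap showed no higher member in any comparison under the main settings. Its 6 genes summed to 9.15, 8.96, 10.2, 9.38 and 9.50 in IFN-gamma-plus-TNF-like samples, 9.57, 9.68, 10.2, 9.45 and 9.77 in TNF-like samples, and 10.0, 10.3, 10.3, 10.2 and 9.07 in unstimulated-like samples, and all groups overlapped. PSMC5, the most abundant ATPase gene, was 3.02 to 3.54, 3.29 to 3.57 and 3.12 to 3.57 in the 3 groups. PSMC2, the least abundant, was at 0.528, 0.526, 0.509, 0.510 and 0.534 in IFN-gamma-plus-TNF-like samples against 0.585, 0.598, 0.653, 0.561 and 0.558 in TNF-like samples, lower without overlap by a log2 ratio of -0.15. Its edge values rested on 40 and 85 counted molecules, with intervals of 0.382 to 0.728 and 0.446 to 0.690 that covered each other, and the sign turned with TMM and with median-of-ratios scaling. The groups also overlapped at the 10% limit, with a pair ratio of 10, with the mean over cells and in thinned cells. PSMC1, PSMC3, PSMC4 and PSMC6 overlapped in all 3 comparisons, with log2 ratios of 0.02, -0.08, -0.10 and -0.21 for IFN-gamma-plus-TNF-like over unstimulated-like samples. With TMM or median-of-ratios scaling and without G2/M cells, PSMC3 was higher in IFN-gamma-plus-TNF-like than in TNF-like samples. The annotation names 13 pseudogenes of PSMC1, so its count is uncertain.

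The 14 non-ATPase genes overlapped in all 3 comparisons, and they summed to 20.8 to 24.1 in IFN-gamma-plus-TNF-like samples, 21.4 to 24.8 in TNF-like samples and 21.1 to 23.8 in unstimulated-like samples. PSMD12, a lid subunit gene and the most abundant of the class, was 3.41 to 4.26, 3.49 to 4.28 and 3.39 to 4.13 in the 3 groups. PSMD14, the lid deubiquitinase that removes ubiquitin chains from substrates, was 1.38 to 1.58, 1.43 to 1.70 and 1.34 to 1.60. The base scaffolds PSMD1 and PSMD2 and the ubiquitin receptor PSMD4 had log2 ratios of -0.11, -0.22 and -0.07 for IFN-gamma-plus-TNF-like over unstimulated-like samples. Over the 8 lid genes the median log2 ratio was -0.05, and it ran between -0.35 for PSMD6 and 0.17 for PSMD7.

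PSMD5, PSMD9 and PSMD10 are not subunits of the finished particle but chaperones that help to assemble the ATPase base. Their log2 ratios of IFN-gamma-plus-TNF-like over unstimulated-like samples were -0.46, -0.30 and -0.27, with a median of -0.30 that was below the median of all genes, and all 3 overlapped. PSMD9 was 1.04, 1.01, 1.20, 0.966 and 1.06 in IFN-gamma-plus-TNF-like samples and 1.28, 1.30, 1.29, 1.35 and 1.08 in unstimulated-like samples, where only HTO4 with HTO10 reached into the first group. PSMD5 and PSMD10 were the scarcest members, with pooled levels of 0.157 and 0.129 and as few as 5 counted molecules in a sample. PSMD10 had a span of 2.59-fold, next to that of PSMA6, but its lowest value, 0.0771 in HTO3 with HTO9, had an interval of 0.0250 to 0.180 that reached most other samples. Both genes overlapped in all 3 comparisons at this depth. PSMD10 was lower than in TNF-like samples with the mean over cells, without G2/M cells and without HTO4 with HTO9, and PSMD5 lower than in unstimulated-like samples without HTO2 with HTO8.

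**Figure D4:**
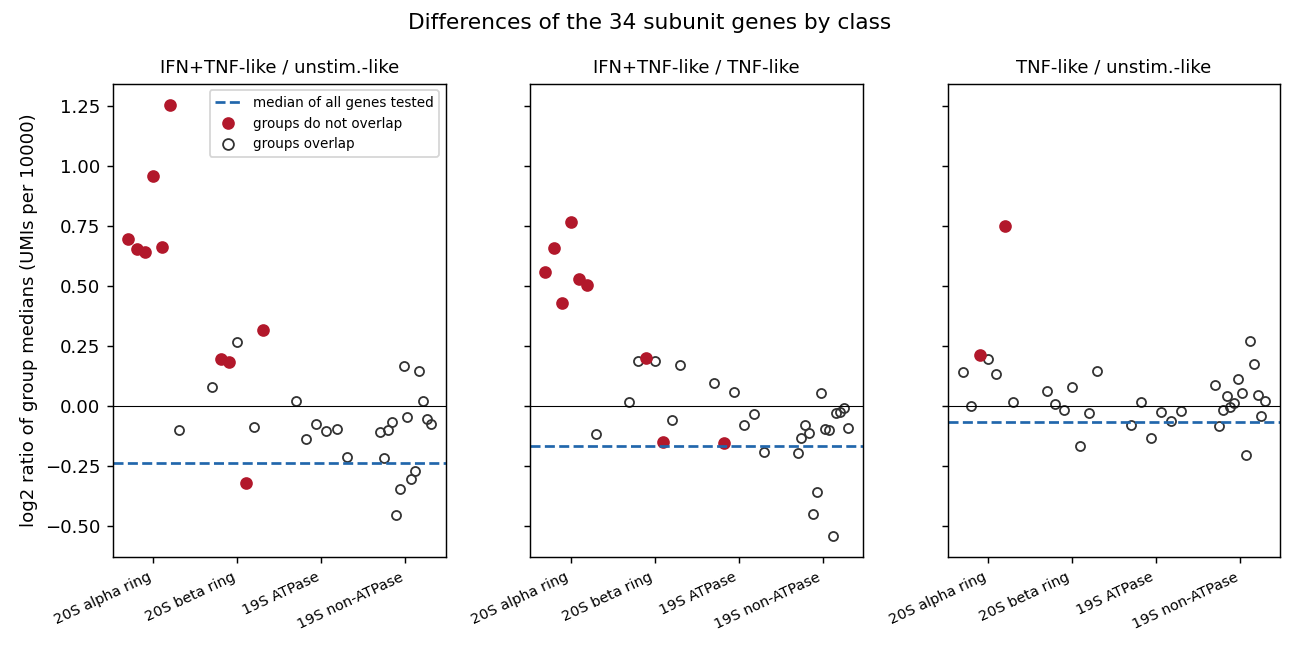
Log2 ratio of group medians for each of the 34 genes by class, in the 3 comparisons. Filled points are genes whose groups did not overlap, open points genes whose groups overlapped, and the dashed line is the median of all genes tested (-0.24, -0.17 and -0.07). The alpha ring holds the 6 highest points at the left and in the middle, PSMA6 stands alone at the right at 0.75, and the 19S classes hold 1 filled point, PSMC2 in the middle.

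The classes differed in their share of the proteasome transcripts. The 34 genes summed to 92.7, 90.5, 95.7, 94.1 and 94.7 in IFN-gamma-plus-TNF-like samples, 85.2, 85.3, 88.2, 82.1 and 82.9 in TNF-like samples, and 79.6, 81.5, 81.9, 81.2 and 76.4 in unstimulated-like samples. The 3 groups did not overlap, with ratios of 1.16-fold, 1.10-fold and 1.05-fold for IFN-gamma-plus-TNF-like over unstimulated-like, over TNF-like and for TNF-like over unstimulated-like samples. The last pair overlapped without mitochondrial genes in the total, with ribosomal protein genes also left out, in thinned cells and without G2/M cells. The first group overlapped the TNF-like samples at a mitochondrial limit of 10% and without mitochondrial and ribosomal protein genes in the total. The 34-gene sum includes PSMA1 to PSMA6. The sums of the beta ring, of the ATPase genes and of the non-ATPase genes each overlapped in all 3 comparisons, as did PSMA7. The separation of the 34-gene sum is therefore not a difference shared by all classes. PSMA1 to PSMA6 summed to 30.1, 30.6, 30.0, 29.8 and 30.6 in IFN-gamma-plus-TNF-like samples, 21.7, 20.6, 19.9, 21.4 and 18.9 in TNF-like samples, and 16.9, 16.5, 17.0, 16.2 and 16.2 in unstimulated-like samples. Those groups stayed apart under each of the 26 alternatives, although those that only leave out samples could not have joined them. This sum leaves out PSMA7, the alpha gene that overlapped. Each gene in it was higher in the first group than in both others, so under the main settings the sum had to separate that group. It adds no support to the values of the single genes.

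Ratios between classes gave the same order of group medians without any scaling. Those below carry PSMA1 to PSMA6 in the numerator, so they partly restate the difference in these genes. The alpha ring over the beta ring was 1.96, 2.04, 2.00, 1.94 and 2.03 in IFN-gamma-plus-TNF-like samples, 1.71, 1.61, 1.64, 1.66 and 1.58 in TNF-like samples, and 1.44, 1.38, 1.51, 1.48 and 1.38 in unstimulated-like samples, and the 3 groups did not overlap. At the 10% limit the TNF-like samples overlapped both other groups, and in thinned cells and without G2/M cells they overlapped the unstimulated-like ones. The 14 genes of the 20S core over the 20 genes of the 19S cap were 1.90, 2.04, 1.80, 1.84 and 1.94, then 1.54, 1.53, 1.52, 1.66 and 1.48, then 1.41, 1.41, 1.40, 1.41 and 1.53 in the same order of groups. IFN-gamma-plus-TNF-like samples were above both others in this ratio, and TNF-like and unstimulated-like samples overlapped through HTO4 with HTO10. The 20 genes counted for the cap include the assembly chaperones PSMD5, PSMD9 and PSMD10. These ratios are of transcripts, and nothing here measures assembled particles.

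**Figure D5:**
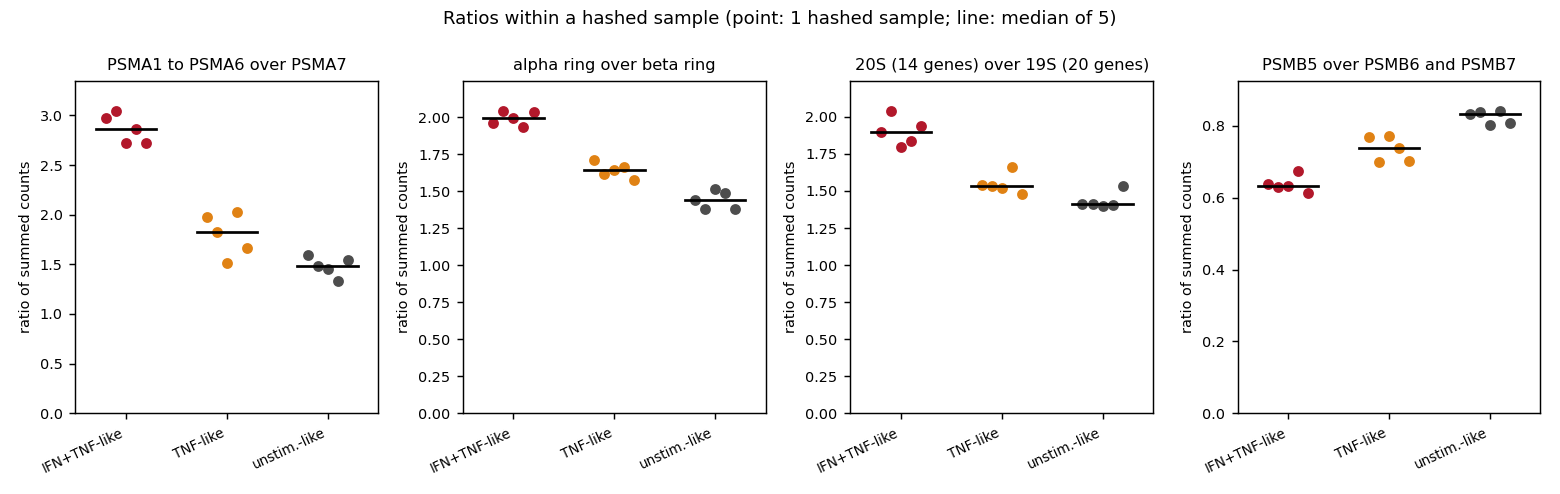
Ratios of summed counts within a hashed sample (y axes from 0), each point 1 hashed sample and each line the median of 5, with IFN-gamma-plus-TNF-like samples at the left. PSMA1 to PSMA6 over PSMA7, the alpha over the beta ring and the 20S over the 19S are highest in IFN-gamma-plus-TNF-like samples, and PSMB5 over PSMB6 and PSMB7 is lowest in them (0.613 to 0.674, against 0.802 to 0.841 in unstimulated-like samples).

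Outside the 34 genes, 39 genes of the pathway were followed. For IFN-gamma-plus-TNF-like against unstimulated-like samples 9 were higher, with 8.57% of all genes, and 6 lower, with 19.8%. Against TNF-like samples 7 were higher, with 5.70%, and 5 lower, with 9.34%. For TNF-like against unstimulated-like samples 4 were higher, with 4.04%, and 2 lower, with 4.09%. Those higher in the first 2 comparisons include PSMB9, a gene of the list that checked the groups. POMP, the maturation chaperone of the beta ring, was at 11.8, 9.86, 10.3, 11.6 and 11.5 in IFN-gamma-plus-TNF-like samples, 6.35, 6.84, 6.46, 5.87 and 6.22 in TNF-like samples, and 5.38, 5.76, 5.99, 5.71 and 5.37 in unstimulated-like samples, 2.02-fold and 1.81-fold higher than in the last and the middle group. The other assembly chaperones did not go with it. PSMG3 was lower at 0.574 to 0.771, against 0.774 to 1.01 in TNF-like and 1.10 to 1.41 in unstimulated-like samples, so that all 3 groups were apart. The first edge was lost with TMM, with median-of-ratios scaling, with the mean over cells and in thinned cells, and the second at the 10% limit, with median-of-ratios scaling and in thinned cells. PSMG1, which works with PSMG2 on the alpha ring, was 0.333 to 0.394, 0.466 to 0.657 and 0.513 to 0.658, lower in the first group except at the 10% limit and in thinned cells, and PSMG2 and PSMG4 overlapped.

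Of the activators, PSME1 and PSME2, the interferon-inducible 11S cap subunits, were at 3.95 to 5.05 and 9.13 to 12.6 in IFN-gamma-plus-TNF-like samples, 2.68 to 3.82 and 4.35 to 7.61 in TNF-like samples, and 2.34 to 3.41 and 4.29 to 5.90 in unstimulated-like samples, higher in the first group than in both others. PSME4, the PA200 activator, was lower at 0.216 to 0.287, against 0.302 to 0.442 and 0.298 to 0.391, and PSME3 and the inhibitor PSMF1 overlapped. PSME4 overlapped both other groups with TMM, with median-of-ratios scaling, with the mean over cells and in thinned cells, and the unstimulated-like samples also at the 10% limit. PSME1 overlapped both at the 10% limit, and the TNF-like samples with the mean over cells and in thinned cells. UCHL5, a deubiquitinase of the cap, was 0.257 to 0.319 in IFN-gamma-plus-TNF-like and 0.407 to 0.518 in unstimulated-like samples, lower in the first except at the 10% limit. SEM1, the smallest lid subunit, was 2.13 to 2.51, 2.52 to 2.70 and 2.33 to 2.51, higher in TNF-like samples than in both other groups by a narrow margin whose sign turned with TMM, where log2 IFN-gamma-plus-TNF-like over TNF-like was 0.037. Each of its separations was lost in 7 of 26 alternatives, of which those that only leave out samples cannot undo a separation.

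NFE2L1, the transcription factor known to raise all proteasome subunit genes together when proteasome activity is short, was 0.434 to 0.570 in IFN-gamma-plus-TNF-like samples, 0.460 to 0.577 in TNF-like samples and 0.485 to 0.612 in unstimulated-like samples, and all groups overlapped. DDI2, the protease that activates it, was lower at 0.0308 to 0.0935 in IFN-gamma-plus-TNF-like and 0.0687 to 0.108 in TNF-like samples than in unstimulated-like samples at 0.129 to 0.198. NFE2L2, its relative that responds to oxidants, was higher at 2.46 to 2.92 and 1.85 to 2.73 than at 1.30 to 1.77 in unstimulated-like samples, and so was MAFF, a small partner factor of both, at 0.319 to 0.588 and 0.268 to 0.550 against 0.137 to 0.264. The TNF-like separation of MAFF was lost in 10 of 26 alternatives, which are all that did more than leave out hashed samples. That of the first group was lost at the 10% limit, in thinned cells and without G2/M cells. At the 10% limit NFE2L2 and DDI2 overlapped in both comparisons with unstimulated-like samples, as did DDI2 in thinned cells for the first group. UBA6, an alternative ubiquitin-activating enzyme, was 0.601 to 0.716, 0.322 to 0.429 and 0.297 to 0.353, higher in the first group than in both others except at the 10% limit and in thinned cells. RAD23B, a shuttle that carries ubiquitinated proteins to the proteasome, was 0.601 to 0.852 in IFN-gamma-plus-TNF-like and 0.922 to 1.07 in unstimulated-like samples, lower in the first. RAD23B overlapped at the 10% limit and with TMM or median-of-ratios scaling. SQSTM1, the p62 autophagy receptor, was highest in TNF-like samples at 13.5 to 16.5, against 9.78 to 12.7 in IFN-gamma-plus-TNF-like and 8.72 to 10.3 in unstimulated-like samples, and overlapped between the first 2 groups with TMM or median-of-ratios scaling.

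For single cells the share with a transcript was read, which does not show how many cells hold a difference. After thinning to 5000 UMIs, which kept 2928 cells and left out 64, 96 and 56 shallower cells of the 3 groups, the median share of cells with a PSMA6 transcript was 97.9% in IFN-gamma-plus-TNF-like samples, 93.3% in TNF-like samples and 81.6% in unstimulated-like samples (99.4%, 97.2% and 95.5% without thinning). For PSMA4 the thinned shares were 90.9%, 71.1% and 71.1%, for PSMB5 72.9%, 77.9% and 81.6%, and for PSMA7 99.4%, 99.2% and 99.3%. No cell type known to lack these genes was at hand as a background. CXCL10, an interferon-induced chemokine of the list that checked the groups, was at 45.8 to 95.9 in IFN-gamma-plus-TNF-like samples. It was at 0.129 to 0.558 in unstimulated-like samples of the same pool. Those cells may make some of it themselves, so free RNA was not measured.

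Between cells of the same sample the subunit genes hardly moved together. The median Spearman rho over pairs of the 34 genes was 0.0141 to 0.0490 over the 15 samples, in cells of equal depth, where sparse counts keep such values low. The summed PSMA1 to PSMA6 count went with that of the 8 IFN-gamma response genes at a rho of 0.156 to 0.392 in IFN-gamma-plus-TNF-like samples, 0.208 to 0.350 in TNF-like samples and -0.0382 to 0.165 in unstimulated-like samples. With the 6 NF-kB response genes it was -0.0809 to 0.244, 0.0922 to 0.432 and -0.0181 to 0.0560. The summed count of all 34 genes had a rho with the mitochondrial share of -0.392 to 0.105, below 0 in 14 of 15 samples. Depth was made equal over all UMIs, mitochondrial ones included, so a higher mitochondrial share leaves fewer UMIs for any other gene. A rho below 0 is thus not particular to these genes, and no background of other genes was computed. All these relations over cells of 1 library are weak and given as descriptions.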

How the data were processed

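The deposited matrix gives unnormalized UMI counts of 36601 genes and 10 hashtags in 5269 barcodes. Its maker was Cell Ranger 5.0.1 per the file headers and Cell Ranger 2.1.1, with GRCh38, per the submitters' processing notes. Cell calling, the annotation and the strand setting are not given in the sources used here. UMIs collapse PCR copies, and 3' counting sees transcript ends.

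Barcodes with at least 1000 genes and at most 20% mitochondrial UMIs were kept (3538), and a cell went to the pair of its top hashtags where the second reached 10 counts and 3 times the next hashtag (3144 cells). The gene expression and hashtag libraries share all 5269 barcodes, being from the same cells. The 394 kept cells without a clear pair, which can hold droplets of several samples, were left out. No doublet caller was run, so doublets of cells of the same hashed sample may remain.

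Counts were summed per hashed sample and divided by its UMIs, times 10000 (Python 3.11.15, numpy 2.4.6, scipy 1.17.1, pandas 2.3.3). Genes with a mean level of at least 0.05 were compared by the ratio of group medians and by whether groups overlapped. The groups were inferred, so no p-value was computed and no count model was fitted. edgeR 4.0.16 gave the TMM factors only. Counting intervals are exact Poisson intervals at 95% and cover counting error only.

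Members, groups and lists were chosen with earlier results of these data known. Genes were named by rule: the 3 catalytic subunits, the most and least abundant of each class, up to 6 members per comparison and direction without overlap, the widest and narrowest span, every pathway gene without overlap, and PSMB8 to PSMB10, PSME1, PSME2, POMP and NFE2L1. Other members are given by range, and the ratios between subunits were chosen after their values were seen. Alternatives changed the cell limits, the pair rule, the scaling, the summing, thinning to 5000 UMIs, cycling cells, small samples and each hashed sample in turn. Leaving out samples cannot undo a separation, so only the other alternatives could. Gene positions are from GENCODE 29 (GRCh38). Genes of 1 pathway list are not reported here.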

Additional observations from a re-analysis of the deposited data

Results flagged for a closer look

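Within a group of 5 hashed samples, a value was marked where its gap to the nearest other sample was large for the range of the group. Of 90 such groups screened 6 were marked, and chance alone marks about 1 in 20. PSMA6 was 10.6 in HTO3 with HTO6, where the other IFN-gamma-plus-TNF-like samples reached 9.06. PSMA2 was 5.04 in HTO3 with HTO9, the IFN-gamma-plus-TNF-like sample of 53 cells, below 5.59 in the nearest other. Among unstimulated-like samples, PSMA1 was 2.03 in HTO3 with HTO7, above 1.73 in the nearest. HTO4 with HTO10 was marked in 3 measures: PSMA3 at 2.67 below 3.07, the 6 ATPase genes at 9.07 below 10.0, and the 20S over the 19S at 1.53 above 1.41.

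Proteasome transcripts were also counted in barcodes outside the comparisons. The 394 kept cells without a clear pair held the 34 genes at 84.8 per 10000 UMIs, beside 84.9 in the 3144 paired cells. The 1731 barcodes removed by the limits on genes or mitochondrial share, with a median mitochondrial share of 29.2%, held them at 53.5. That share was 13.1% in the paired cells. Mitochondrial UMIs are part of the total, so a higher share lowers the level of every other gene, and its part in this difference was not tested. Of the removed barcodes with a pair, PSMA1 to PSMA6 over PSMA7 was 2.01 to 3.13 in 447 IFN-gamma-plus-TNF-like barcodes, 1.47 to 2.02 in 626 TNF-like barcodes and 1.36 to 1.62 in 463 unstimulated-like barcodes, each range over 5 hashed samples. The TNF-like range overlapped both others.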

How the results depend on the processing

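PSMA1 to PSMA6 were higher in IFN-gamma-plus-TNF-like than in unstimulated-like samples under all 26 alternatives, except PSMA2 at a mitochondrial limit of 10%. Alternatives that only leave out samples could not have undone a separation. Against TNF-like samples the exceptions were PSMA1 and PSMA2 at that limit and PSMA1 in thinned cells. The 10% limit left out most cells of every sample, so fewer molecules were counted, and the part of that loss in its changes was not tested. At the 10% limit 5 members were higher (4.66% of all genes) and 0 lower (6.26%) against unstimulated-like samples, and 4 higher (2.86%) and 0 lower (2.81%) against TNF-like samples. There the log2 ratio of the 34-gene sum to TNF-like samples was 0.082, and that of PSMA1 to PSMA6 was 0.42 to TNF-like and, for TNF-like over unstimulated-like samples, 0.41, and the cause was not tested. With TMM the 34-gene sum gave log2 0.43, 0.31 and 0.12 in the 3 comparisons and PSMA1 to PSMA6 gave 1.10 and 0.71 in the first and the second. With median-of-ratios factors the same values were 0.44, 0.32 and 0.12, with 1.10, 0.70 and, in the last comparison, 0.40. Both scalings, whose factors are estimated from the counts without the groups, raised levels in IFN-gamma-plus-TNF-like samples relative to the others. The TMM factors were 0.906 to 0.929 there, 0.992 to 1.06 in TNF-like and 1.02 to 1.09 in unstimulated-like samples. Both scalings left 0 members lower in the first and 0 in the second comparison, and TMM left 11 higher in the second. With TMM 13.2% of all genes were higher and 9.71% lower in the first comparison, and 8.29% and 4.04% in the second. With median-of-ratios factors these shares were 13.1% and 9.8%, then 8.11% and 4.16%. Signs turned for PSMB5 (0.0023 with TMM), PSMC2 (0.021 with TMM, 0.016 with median-of-ratios) and SEM1 (0.037 with TMM, 0.030 with median-of-ratios) in IFN-gamma-plus-TNF-like over TNF-like samples, and for SEM1 (-0.026 at the 10% limit) in TNF-like over unstimulated-like samples. Against TNF-like samples 1 member was lower with a pair ratio of 10 (PSMB5, with 8.97% of all genes), with the mean over cells (PSMD10, 7.58%) and with thinned cells (PSMB5, 5.11%). In thinned cells the 1 member lower against unstimulated-like samples was PSMC6 in place of PSMB5, with 11.5% of all genes. With the mean over cells 1 was higher for TNF-like over unstimulated-like samples (PSMA6, 3.84%). Without samples of under 60 cells 2 were lower against unstimulated-like samples (PSMB5 and PSMD9, 24.5%).

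By the overlap rule, leaving out a sample can keep or add calls but cannot undo them, so the counts below could not fall. Leaving out each hashed sample gave, against unstimulated-like samples, 9 to 11 higher (8.57% to 9.99% of all genes) and 1 to 3 lower members (19.8% to 25.7%), 0.20 to 0.23 for the 34-gene sum and 0.85 to 0.88 for PSMA1 to PSMA6. Against TNF-like samples it gave 7 to 8 higher (5.70% to 6.88%), 2 to 3 lower (9.34% to 13.9%), 0.13 to 0.16 and 0.52 to 0.57. For TNF-like over unstimulated-like samples it gave 2 to 4 higher (4.04% to 6.06%), 0 lower (4.09% to 7.14%), 0.05 to 0.08 and 0.29 to 0.35. PSMB5 was joined as lower by PSMD9 without HTO3 with HTO9, PSMD6 without HTO4 with HTO6, PSMD5 without HTO2 with HTO8, PSMC2 without HTO3 with HTO7, and PSMC3 and PSMD9 without HTO4 with HTO10. PSMB7 and PSMD11 joined as higher in TNF-like samples without HTO3 with HTO8. Among genes with a mean level of at least 0.2, 10.9% were higher and 21.7% lower against unstimulated-like samples, and among every gene with a count 3.78% and 8.81%. No paired analysis was possible because no label gives the hashed samples a treatment or a shared replicate number. Depth limits PSMD5, PSMD10 and DDI2 most.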

Other observations

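Neighbours of PSMA6 on chromosome 14 were read after its values were seen, as the genes within 250 kb in the annotation that were tested. NFKBIA, the NF-kB inhibitor gene that TNF is known to induce, lies 84.0 kb away on the opposite strand and was at 16.6 to 20.1 in IFN-gamma-plus-TNF-like samples, 10.5 to 15.9 in TNF-like samples and 1.12 to 1.47 in unstimulated-like samples. FAM177A1, 166 kb away, was 2.06 to 2.37, 1.60 to 1.79 and 1.40 to 1.60 and separated the first group from both others. KIAA0391, which ends 1.02 kb before PSMA6 on the same strand, was lower in the first group at 0.134 to 0.170, against 0.172 to 0.290 in TNF-like and 0.178 to 0.214 in unstimulated-like samples. PPP2R3C was 0.290 to 0.441, 0.282 to 0.498 and 0.166 to 0.277, SRP54 1.09 to 1.38, 1.08 to 1.23 and 0.979 to 1.17, and RALGAPA1 0.120 to 0.216, 0.221 to 0.292 and 0.176 to 0.336.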
